A study of Homo sapiens with 12 samples.

Results

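The 9 TGF-beta pathway genes described here are TGFB1, INHBA, TGFBR1, TGFBR2, SMAD2, SMAD3, SMAD4, SMAD7 and TGFBI, taken by symbol from the deposited count table. All 9 symbols were found among its 19225 entries, and all 9 passed the filter on low counts that left 14360 genes for testing. HN6 and HN30, established cell lines of oral squamous cell carcinoma (OSCC), were transfected with a control siRNA (NC) or with 1 of 2 siRNAs against FAT1 (siFAT1-1 or siFAT1-2), using Lipofectamine RNAiMAX, and RNA was taken after 24 h. Each of the 6 conditions had 2 biological repeats, which gave 12 libraries, namely 4 NC, 4 siFAT1-1 and 4 siFAT1-2 libraries. All groups went through transfection, and each line stands for 1 source of cells. The sample titles call the knockdown groups FAT1-sh1 and FAT1-sh2, whereas their descriptions name siRNAs.

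TGF-beta ligands bind TGFBR2, which recruits and phosphorylates TGFBR1, and the active receptor phosphorylates SMAD2 and SMAD3. These receptor-activated SMADs join SMAD4 and act on target genes in the nucleus, while SMAD7 is induced by the pathway and blocks the receptor. In squamous epithelium the pathway is known both for restraining growth and, in advanced carcinomas, for promoting invasion and matrix production. FAT1 is a giant protocadherin of the cell surface.

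The genes are spread over 7 chromosomes of GRCh38. By the GENCODE annotation, SMAD3 (ENSG00000166949) lies on the plus strand of chromosome 15 from 67063763 to 67195173, with 9 exons in its reference transcript. TGFBR2 (ENSG00000163513), also on the plus strand, spans chromosome 3 from 30606601 to 30694142 with 7 exons. SMAD7 (ENSG00000101665), on the minus strand, spans chromosome 18 from 48919853 to 48950965 with 4 exons. Exons of another annotated gene on the same strand cover 814 bases of the SMAD4 transcript, or 9.28% of it. How reads there were counted is not known. No exon overlap was found for the other 8.

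The 250 bases upstream of the transcription start are shown for SMAD3 and TGFBR2, which had the lowest unadjusted P after knockdown among the 9 genes, and for SMAD7, the feedback inhibitor. The sequences are RefSeq, GRCh38.p14, written 5′ to 3′ on the strand of the gene. Capitals mark the GC box GGGCGG in the first pair and the SMAD box CAGAC in the last, each searched on both strands. These motifs do not overlap within the windows.
SMAD3, chr15:67065352-67065601, plus strand: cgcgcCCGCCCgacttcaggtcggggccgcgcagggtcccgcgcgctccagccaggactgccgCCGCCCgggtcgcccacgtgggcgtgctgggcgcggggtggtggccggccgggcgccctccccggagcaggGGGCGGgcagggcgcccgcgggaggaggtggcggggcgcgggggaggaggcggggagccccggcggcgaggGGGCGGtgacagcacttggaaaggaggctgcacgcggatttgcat
TGFBR2, chr3:30606351-30606600, plus strand: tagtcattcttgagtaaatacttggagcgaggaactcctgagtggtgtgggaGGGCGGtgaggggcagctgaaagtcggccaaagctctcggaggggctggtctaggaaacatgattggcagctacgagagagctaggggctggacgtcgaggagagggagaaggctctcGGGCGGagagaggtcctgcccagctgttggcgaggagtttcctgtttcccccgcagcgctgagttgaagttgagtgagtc
SMAD7, chr18:48950966-48951215, minus strand: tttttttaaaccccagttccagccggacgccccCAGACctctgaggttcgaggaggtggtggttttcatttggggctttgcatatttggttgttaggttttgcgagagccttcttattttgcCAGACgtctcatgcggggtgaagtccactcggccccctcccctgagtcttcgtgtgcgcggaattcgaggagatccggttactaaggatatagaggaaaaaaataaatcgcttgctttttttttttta
The SMAD3 window held 4 GC boxes and no SMAD box, the TGFBR2 window held 2 GC boxes and no SMAD box, and the SMAD7 window held 2 SMAD boxes and no GC box. A GC box was found in 6 of the 9 windows and in 42.6% of 35116 upstream windows of the same length. A SMAD box was found in 2 of the 9, SMAD7 and TGFBR1, and in 38% of all windows. The longer SMAD palindrome GTCTAGAC was in 0 of the 9 and in 0.182% of all windows. The G+C content was 80.8% for SMAD3, 58.4% for TGFBR2 and 48% for SMAD7. These matches describe letters only, and no binding was measured.

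Libraries held between 26430049 and 47639010 counts. FAT1 itself was lower after knockdown in both lines. In HN6 its level was 56.8 and 66.8 CPM (counts scaled to a common library size with TMM factors) in the NC libraries, 7.60 and 13.5 with siFAT1-1 and 13.2 and 21.4 with siFAT1-2. In HN30 the NC libraries stood at 13.6 and 14.8 CPM, siFAT1-1 at 4.85 and 6.25 and siFAT1-2 at 10.8 and 7.75. The HN30 siFAT1-2 mean was 65.4% of the HN30 NC mean. Within lines the log2 fold change of FAT1 in edgeR was -2.19 in HN6 (adjusted p = 0.0550) and -0.98 in HN30 (adjusted p = 0.207). Neither passed in edgeR. In HN6 FAT1 passed in the DESeq2 Wald test (adjusted p = 3.95e-08) and in limma-voom (adjusted p = 0.0243). In HN30 it passed in neither, with adjusted p of 0.0671 and 0.209. Over both lines the FAT1 level fell by 1.59 on the log2 scale (SE 0.308, adjusted p = 0.0413 by the quasi-likelihood test of edgeR with Benjamini-Hochberg adjustment over all genes tested). With the repeats as a replicate block the adjusted p was 0.0783, and it passed in 1 of the 12 fits that left out a library, the one without HN30 siFAT1-2 replicate 1, with 0.0534 to 0.1252 in the other 11. With all 12 libraries the DESeq2 Wald test gave FAT1 an adjusted p of 0.000304 over both lines, and limma-voom gave 0.0224. Against NC, FAT1 fell by 2.00 with siFAT1-1 (adjusted p = 0.00652) and by 1.27 with siFAT1-2 (adjusted p = 0.0237, or 0.0725 without HN6 siFAT1-2 replicate 1). Of the 10 squamous epithelial markers, KRT5 ran from 90.7 to 1986 CPM and KRT14 from 0 to 2.43 CPM. The 5 leukocyte markers summed to 24.4 to 124 CPM, with CD68 at 16.1 to 121 CPM and CD14 at 2.07 to 14.97 CPM, while the other 3, among them PTPRC at up to 0.0253 CPM, stayed under 1 CPM. The 9 fibroblast markers summed to 31.9 to 164 CPM, with COL1A1 at 11.1 to 146 CPM, and the 5 endothelial markers to 0.260 to 9.13 CPM.

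The levels of the 9 genes in the NC libraries spanned more than 2 orders of magnitude per length. Divided by the length of the reference transcript, the median over the 4 NC libraries was 485 CPM per kb for TGFBI, an extracellular matrix protein named for its induction by TGF-beta. INHBA (79.1), TGFBR2 (77.7), SMAD3 (71.2) and TGFB1 (40.7 CPM per kb) followed. The ranges of INHBA, TGFBR2 and SMAD3 over the NC libraries overlapped, whereas that of TGFB1, 25.6 to 59.1, ended just below that of SMAD3, 61.95 to 75.4. SMAD7 (8.18), SMAD4 (6.76) and TGFBR1 (4.70 CPM per kb) formed a lower group, again with overlapping ranges. SMAD2 was lowest at 1.97 CPM per kb, a value that rests on a reference transcript of 34626 bases, and its range of 0.938 to 2.74 overlapped that of TGFBR1, 2.20 to 8.31. On this scale of level per kb, the receptor that binds ligand stood above its signaling partner, and SMAD3 stood above SMAD2, in each of the 4 NC libraries.

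**Figure D1:**
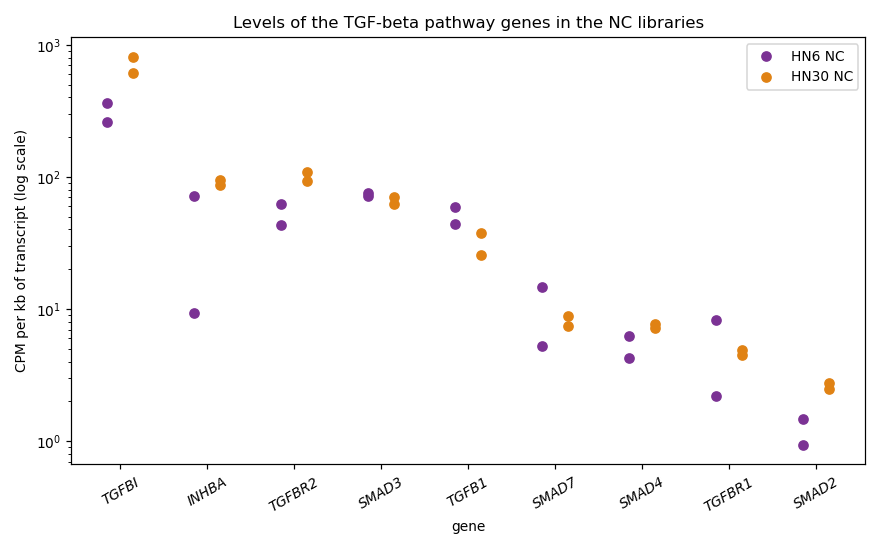
Levels in the NC libraries as CPM per kb of reference transcript (log scale), 2 points for each cell line, with genes ordered by their median over the 4 libraries. TGFBI stands highest at 262 to 813 CPM per kb, and the 2 HN6 points of INHBA lie far apart, at 9.33 and 71.9.

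In HN6 against HN30, 5 of the 9 genes passed an adjusted p of 0.05, all lower in HN6. Of all genes tested, 56.6% passed in either direction, and the share called among the 9 was near that. In the lower direction alone 27.9% of all genes passed, a smaller share than the 5 of 9. Whether the 9 differ from all genes in direction was not tested. The 5 were INHBA, TGFBR2, SMAD2, SMAD4 and TGFBI. The study called differentially expressed genes (DEGs) at P under 0.05 together with a log2 change larger than 1 in size, and INHBA and TGFBI passed these thresholds, beside 32.5% of all genes. This comparison is of 2 lines only.

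TGFBI ran from 580 to 976 CPM in the 6 HN6 libraries (median 857) and from 1482 to 2844 CPM in the 6 HN30 libraries (median 1886). The lines did not overlap, and the level was lower in HN6 by a log2 difference of -1.24 (SE 0.194, adjusted p = 0.000186). INHBA, which encodes the subunit of activin A, a ligand that signals through the same SMADs, ran from 56.4 to 435 CPM in HN6 (median 252) and from 521 to 841 CPM in HN30 (median 720.4). Its log2 difference was -1.53 (SE 0.354, adjusted p = 0.00290), and again no HN6 library reached the HN30 range. SMAD2 ran from 32.5 to 59.8 CPM in HN6 (median 42.3) and from 80.5 to 94.9 CPM in HN30 (median 83.9), a log2 difference of -0.94 (SE 0.144, adjusted p = 0.000163). What share of all genes kept the lines apart in this way was not counted.

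TGFBR2, the ligand-binding receptor, was lower in HN6 by a log2 difference of -0.82 (SE 0.171, adjusted p = 0.00145), with ranges of 150.1 to 284 CPM in HN6 and 236 to 494 CPM in HN30. SMAD4, the shared partner of the receptor-activated SMADs, differed least of the 5, at -0.39 (SE 0.127, adjusted p = 0.0190), with 37.6 to 58.9 CPM in HN6 and 54.1 to 68.0 CPM in HN30. In both cases the lines overlapped. SMAD3 did not show this pattern. Its log2 difference between the lines was 0.09 (SE 0.158, adjusted p = 0.645), so that the 2 receptor-activated SMADs were placed differently between the lines. TGFB1 (0.36, adjusted p = 0.169), TGFBR1 (0.23, adjusted p = 0.474) and SMAD7 (-0.04, adjusted p = 0.941) did not pass either.

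**Figure D2:**
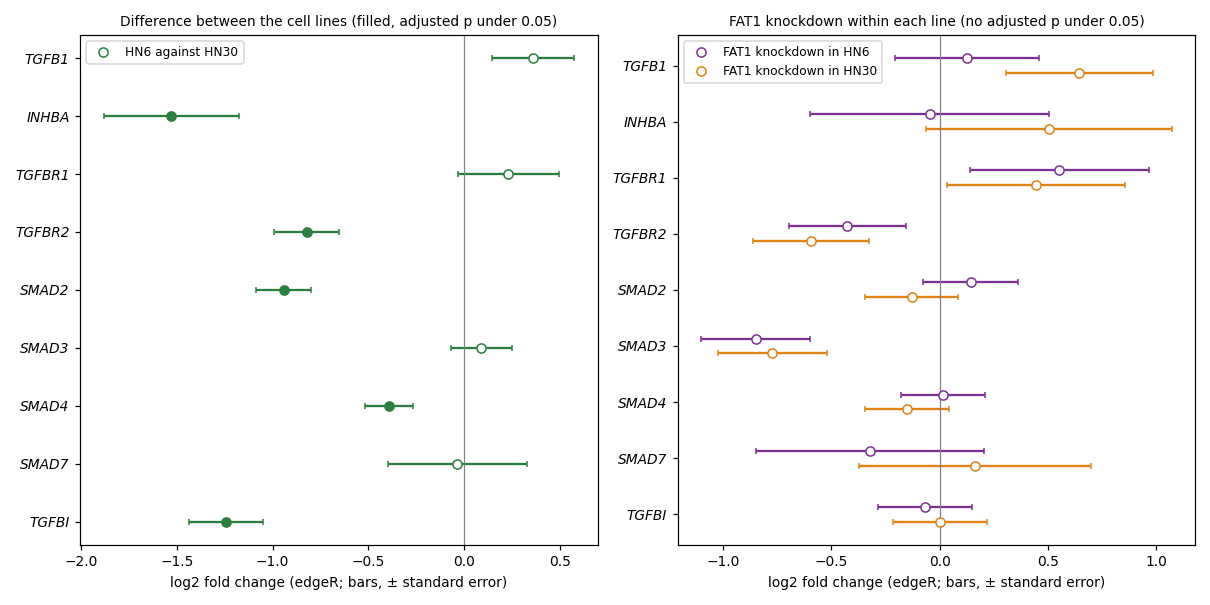
Log2 fold changes with standard errors from edgeR for HN6 against HN30 (left, all 12 libraries) and for FAT1 knockdown within each line (right, 4 knockdown against 2 NC libraries per line), with filled points for an adjusted p under 0.05. The 5 filled points on the left are all below 0, and SMAD3 lies below 0 in both lines on the right, at -0.85 in HN6 and -0.77 in HN30.

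SMAD3, a receptor-activated transcription factor of the pathway, was the member with the lowest P after FAT1 knockdown. In HN6 its level was 461 and 487 CPM in the NC libraries, 274 and 294 CPM with siFAT1-1, and 184 and 304 CPM with siFAT1-2. In HN30 it was 459 and 400.4 CPM in the NC libraries, 281 and 255 CPM with siFAT1-1, and 168 and 304 CPM with siFAT1-2. All 8 knockdown libraries lay below all 4 NC libraries, whichever the line. What share of all genes did so across the lines was not counted. With each line set against its own NC libraries, 5.29% of all genes were one-sided in one direction or the other. The counts behind these values ran from 5833 to 17278. In bulk RNA, fewer cells of a type and less RNA per cell cannot be told apart.

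As a share of the NC mean of its line, SMAD3 stood at 59.9% with siFAT1-1 and 51.5% with siFAT1-2 in HN6, and at 62.3% and 55.0% in HN30. The means were 474 ± 18.8 CPM for HN6 NC and 430 ± 41.4 CPM for HN30 NC (SD, n = 2). With siFAT1-1 they were 284 ± 14.3 in HN6 and 268 ± 18.1 in HN30, and with siFAT1-2 they were 244 ± 85.2 and 236 ± 96.1 (SD, n = 2). The siFAT1-2 repeats were the most unequal, 1.66-fold apart in HN6 and 1.81-fold apart in HN30.

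Over both lines and siRNAs, the log2 fold change of SMAD3 was -0.81 (SE 0.174, unadjusted P = 0.000449), rank 97 of the 14360 genes by P. It did not pass after adjustment over all genes in edgeR (adjusted p = 0.0659). The DESeq2 Wald test gave an adjusted p of 0.00382 and limma-voom 0.0527, and over all alternatives the adjusted p ran from 0.00382 to 0.280. With 1 library left out the log2 fold change ran from -0.86 to -0.74, and 0 of these 12 fits passed.

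Taken by siRNA, SMAD3 fell with siFAT1-2 by 0.91 on the log2 scale (SE 0.195, adjusted p = 0.0144). It passed in each of the 17 alternatives run, with adjusted p between 0.000783 and 0.0467. With siFAT1-1 the log2 fold change was -0.71 (SE 0.195, adjusted p = 0.0710), and the call depended on the setting, with an adjusted p of 0.0256 in the DESeq2 Wald test, 0.0456 without HN6 siFAT1-2 replicate 1 and 0.0460 without HN30 siFAT1-2 replicate 1. The siRNAs themselves did not differ detectably in SMAD3, with a log2 difference of 0.20 for siFAT1-1 against siFAT1-2 (SE 0.194, adjusted p = 0.501). Both siRNA comparisons share the same 4 NC libraries.

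Within lines the log2 fold change of SMAD3 was -0.85 in HN6 (SE 0.251, adjusted p = 0.219) and -0.77 in HN30 (SE 0.252, adjusted p = 0.233). The difference between those changes was -0.08 (SE 0.365, adjusted p = 1.000), and it changed sign when single libraries were left out. SMAD3 was also set against SMAD2 within each library, a ratio that needs no scaling between libraries. The ratio of their CPM values was 9.12 to 15.01 in HN6 NC and 3.07 to 7.20 in HN6 knockdown libraries, and 4.67 to 4.83 in HN30 NC against 1.93 to 3.76 in HN30 knockdown libraries. In neither line did the NC and knockdown ratios overlap, as held for 3.32% of all genes set against SMAD2 in the same way.

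**Figure D3:**
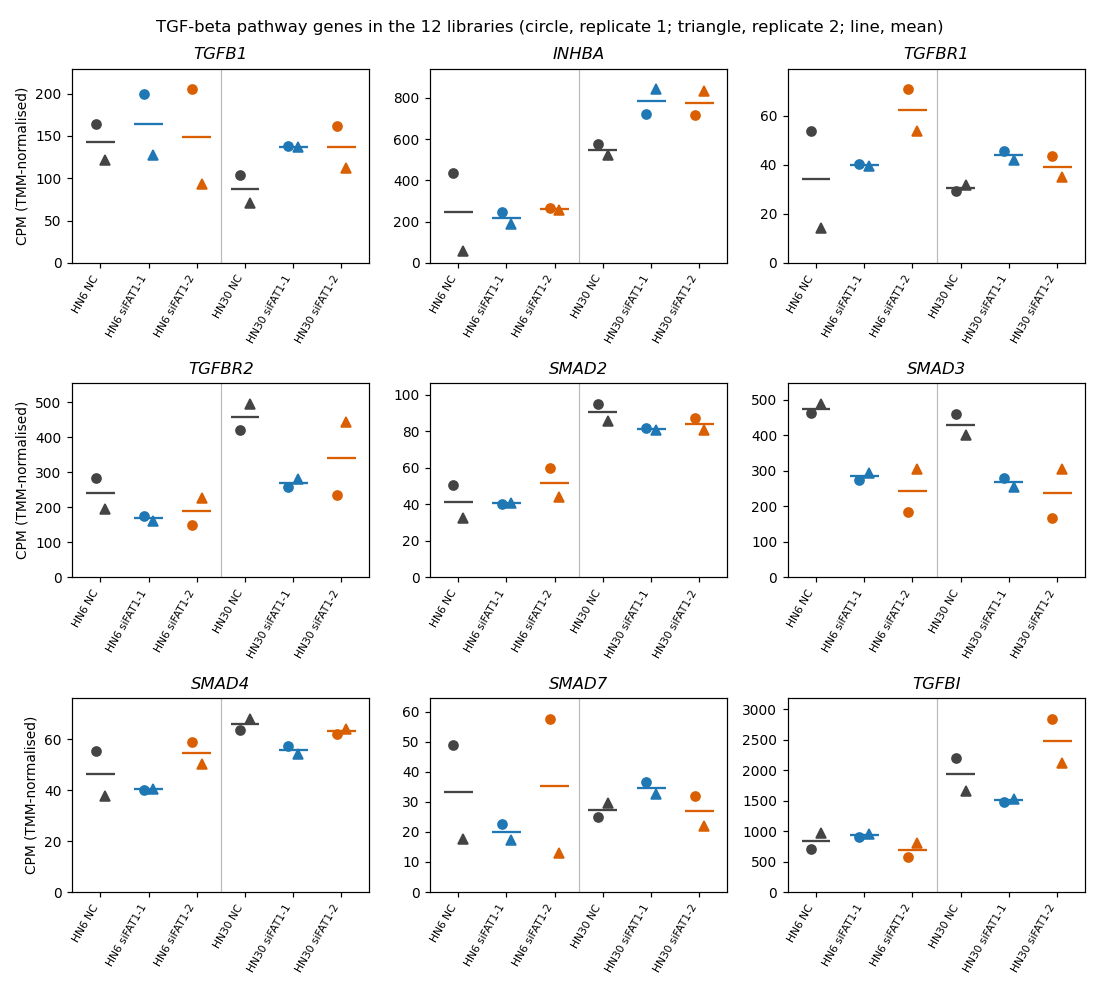
TMM-scaled CPM of each gene in the 12 libraries, 2 points for each condition (circle, replicate 1, and triangle, replicate 2) and a line for their mean, with HN6 on the left of each panel. SMAD3 is at 168 to 304 CPM in the 8 knockdown libraries, below the 400.4 to 487 CPM of the 4 NC libraries, whereas the HN6 NC repeats of INHBA, TGFBR1 and SMAD7 lie far apart.

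Among the 9 genes, 0 passed an adjusted p of 0.05 for FAT1 knockdown against NC in edgeR, beside 0.522% of all genes. The DESeq2 Wald test called 1 (SMAD3) and limma-voom 0. At an unadjusted P under 0.05 there were 2 of 9, SMAD3 and TGFBR2, beside 14.2% of all genes. Past the DEG thresholds there were 0 of 9, beside 3.2% of all genes. SMAD3 was the 1 gene of the 9 whose knockdown libraries all fell to one side of the NC libraries of the same line, a pattern that 5.29% of all genes showed in one direction or the other. Of the 9 estimates 4 were above 0 and 5 below, with a median of -0.0046 on the log2 scale beside 0.02 over all genes.

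For siFAT1-1 against NC, 0 of 9 passed the adjusted p in edgeR, beside 3.15% of all genes, with 1 by the DESeq2 Wald test and 0 by limma-voom. At an unadjusted P under 0.05 there were 2 of 9, beside 18.8% of all genes. With siFAT1-1, SMAD3 and TGFBR2 had all 4 knockdown libraries below both NC libraries of their line, and 20.5% of all genes were one-sided in this way. For siFAT1-2 against NC, 1 of 9 passed (SMAD3, lower), beside 11.3% of all genes, and the same gene was the 1 that was one-sided, beside 22% of all genes. For siFAT1-1 against siFAT1-2, 0 of 9 passed in edgeR, the DESeq2 Wald test and limma-voom, and 0 had an unadjusted P under 0.05. Of all genes 16.8% passed the adjusted p and 33.4% had an unadjusted P under 0.05. The nearest was SMAD4, at -0.31 (SE 0.155, adjusted p = 0.184).

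**Figure D4:**
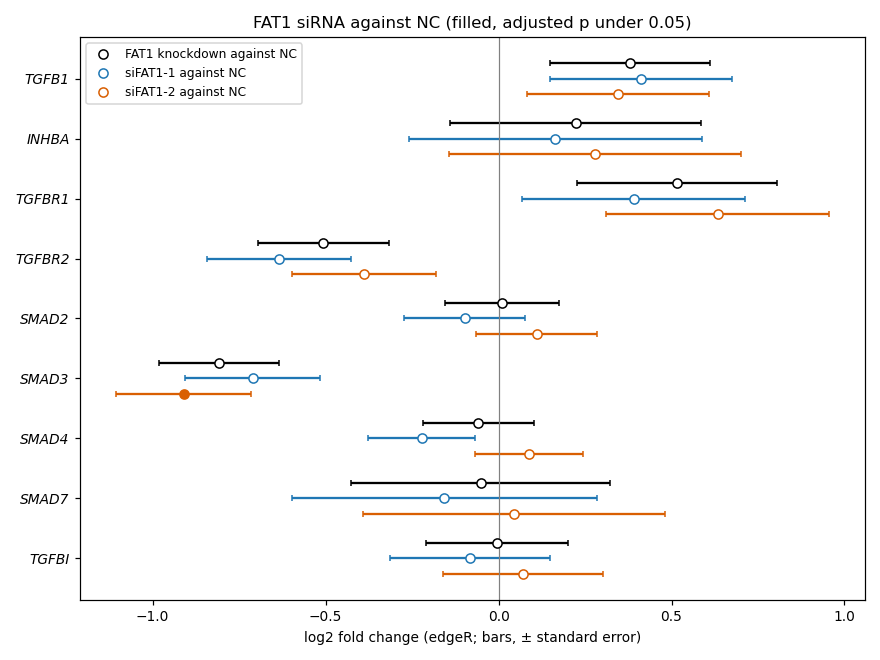
Log2 fold changes of the 9 genes with standard errors from edgeR for FAT1 knockdown against NC (8 against 4 libraries) and for each siRNA against NC (4 against 4), with filled points for an adjusted p under 0.05. The only filled point is SMAD3 with siFAT1-2, at -0.91, and the points of SMAD2, SMAD7 and TGFBI lie near 0 in all 3 comparisons.

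TGFBR2 was the other gene with an unadjusted P under 0.05. In HN6 its level was 284 and 195 CPM in the NC libraries, 175 and 162 CPM with siFAT1-1, and 150.1 and 227 CPM with siFAT1-2. In HN30 it was 420.3 and 494 CPM in the NC libraries, 258 and 281 CPM with siFAT1-1, and 236 and 443 CPM with siFAT1-2. The siFAT1-1 libraries were below both NC libraries of their line, whereas 1 siFAT1-2 library of each line lay between the NC libraries.

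The log2 fold change of TGFBR2 was -0.51 for knockdown against NC (SE 0.189, unadjusted P = 0.0187, adjusted p = 0.249). It was -0.63 with siFAT1-1 (SE 0.209, adjusted p = 0.129) and -0.39 with siFAT1-2 (SE 0.208, adjusted p = 0.242). None of the alternatives run brought the adjusted p of these TGFBR2 comparisons under 0.05. The difference between the lines in the knockdown effect was 0.17 (SE 0.386, adjusted p = 0.995).

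TGFBR1, the signaling receptor kinase, had no common direction in HN6. It stood at 53.9 and 14.3 CPM in the HN6 NC libraries, 40.5 and 39.7 CPM with siFAT1-1, and 70.8 and 53.8 CPM with siFAT1-2. In HN30 it was 29.3 and 31.7 CPM in the NC libraries and higher in all 4 knockdown libraries, at 45.6 and 42.1 CPM with siFAT1-1 and 43.5 and 35.04 CPM with siFAT1-2. The log2 fold change over both lines was 0.52 (SE 0.288, adjusted p = 0.440), and within HN30 it was 0.45 (SE 0.412, adjusted p = 0.706). The HN6 NC repeats differed 3.77-fold, while the knockdown means stood at 118% to 183% of the NC mean of their line. Without HN6 NC replicate 1 the HN6 change was 1.79 (adjusted p = 0.00261), and without HN6 NC replicate 2 it was -0.11 (adjusted p = 0.932).

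The ratio of TGFBR2 to TGFBR1 within a library, in CPM, was 5.26 to 13.6 in HN6 NC and 2.12 to 4.31 in HN6 knockdown libraries. In HN30 it was 14.3 to 15.6 in NC and 5.42 to 12.6 in knockdown libraries. The NC and knockdown ratios did not overlap in either line, and the gap in HN6 was small, 5.26 against 4.31. Of all genes set against TGFBR1 in this way, 4.06% did not overlap in either line.

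TGFB1, the ligand from which the pathway takes its name, was at 164 and 122 CPM in HN6 NC, 199 and 128 CPM with siFAT1-1, and 205 and 93.3 CPM with siFAT1-2, so that the groups overlapped. In HN30 it was at 104 and 71.3 CPM in NC, 138 and 137 CPM with siFAT1-1, and 161 and 112 CPM with siFAT1-2, and the 4 knockdown libraries were above both NC libraries. The log2 fold change was 0.38 over both lines (SE 0.231, adjusted p = 0.479) and 0.64 within HN30 (SE 0.340, adjusted p = 0.445).

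INHBA was at 435 and 56.4 CPM in the HN6 NC libraries, and the HN6 knockdown libraries lay between them, at 248 and 186 CPM with siFAT1-1 and 265 and 256 CPM with siFAT1-2. In HN30 it was at 577 and 521 CPM in NC and higher after knockdown, at 724 and 841 CPM with siFAT1-1 and 717 and 833 CPM with siFAT1-2. The log2 fold change was 0.22 over both lines (SE 0.364, adjusted p = 0.813). The HN6 NC repeats differed 7.71-fold. Without HN6 NC replicate 1 the change within HN6 was 2.06 (adjusted p = 0.00138) and the difference between the lines was 1.56 (adjusted p = 0.0117). Without HN6 NC replicate 2 they were -0.87 (adjusted p = 0.154) and -1.37 (adjusted p = 0.494), so the direction of INHBA in HN6 rested on which NC library was kept.

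Within HN6, 0 of 9 genes passed the adjusted p in edgeR, in DESeq2 and in limma-voom, beside 0.00696% of all genes. At an unadjusted P under 0.05 there was 1 (SMAD3), beside 13.9% of all genes. Without HN6 NC replicate 1 there were 2 at the adjusted p, INHBA and TGFBR1. SMAD3 was the 1 gene with all 4 HN6 knockdown libraries on one side of both NC libraries, beside 15.9% of all genes. Within HN30, 0 of 9 passed with the same 3 tools, beside 0.0557% of all genes, and 1 had an unadjusted P under 0.05 (SMAD3), beside 14% of all genes. In HN30 4 of 9 genes were one-sided, TGFB1, INHBA and TGFBR1 above and SMAD3 below both NC libraries, beside 20.6% of all genes. For the interaction of cell line and knockdown 0 of 9 passed in edgeR, DESeq2 and limma-voom and 0 had an unadjusted P under 0.05. Of all genes 0% passed and 4.01% had an unadjusted P under 0.05.

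SMAD2, SMAD4, SMAD7 and TGFBI had log2 fold changes near 0 for knockdown against NC, at 0.01 (SE 0.166), -0.06 (SE 0.161), -0.05 (SE 0.374) and -0.0046 (SE 0.205), with adjusted p from 0.895 to 0.995. SMAD7 was the least reproducible of these. In HN6 it stood at 49.0 and 17.6 CPM in NC, 22.7 and 17.3 CPM with siFAT1-1, and 57.7 and 13.1 CPM with siFAT1-2. The siFAT1-2 repeats differed 4.41-fold and the NC repeats 2.79-fold, whereas in HN30 SMAD7 stayed between 22.01 and 36.6 CPM. SMAD4 in HN6 stood at 55.1 and 37.6 CPM in NC, and all 4 HN6 knockdown libraries, at 40.2 to 58.9 CPM, were above the lower of these. TGFBI in HN30 was at 2205 and 1657 CPM in NC, at 1482 and 1527 CPM with siFAT1-1, below both, and at 2844 and 2115 CPM with siFAT1-2, which overlapped NC. In HN6 the order was different, since siFAT1-1 gave 905 and 955 CPM, between the NC libraries at 710 and 976 CPM.

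The 9 genes did not move as a block across the libraries. On log2 CPM centred within each line, the 36 pairs of genes had Pearson r from -0.64 to 0.89 with a median of 0.04 over 12 libraries. INHBA with TGFBR1 (0.89) and SMAD2 with SMAD4 (0.87) were the closest pairs, and TGFBR2 with SMAD3 stood at 0.77. The libraries share their treatment and scaling, so these values are descriptions. Over all genes tested, the profile most like SMAD3 was that of USP13 (r = 0.97), a deubiquitinase, and the one most like TGFBR2 was that of EGFR (r = 0.92), the receptor of epidermal growth factor. The closest to TGFBR1 was STXBP5 (0.99), to SMAD2 FAM177A1 (0.98), to SMAD4 ATG12 (0.97), to INHBA ZNF432 (0.97), to SMAD7 SLC26A11 (0.95), to TGFBI PITHD1 (0.93) and to TGFB1 DAPK3 (0.93).

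Other genes of the pathway were taken from 7 lists with 126 genes in all, of which 111 were tested. After FAT1 knockdown 0 of 111 were higher and 1 lower at an adjusted p under 0.05 in edgeR (0.901%, beside 0.522% of all genes). The 1 gene was RUNX3, a transcription factor that partners SMADs. Its level was 38.1 and 24.3 CPM in HN6 NC and 7.41 to 12.7 CPM in the HN6 knockdown libraries, and 30.1 and 24.6 CPM in HN30 NC against 9.23 to 17.7 CPM after knockdown. No knockdown library reached an NC library of its line, and 5.29% of all genes were one-sided within both lines in one direction or the other. RUNX3 fell by 1.36 on the log2 scale (SE 0.230, adjusted p = 0.0198), by 1.70 with siFAT1-1 (adjusted p = 0.00289) and by 1.09 with siFAT1-2 (adjusted p = 0.00954). Over both siRNAs the DESeq2 Wald test gave an adjusted p of 1.34e-05 and limma-voom 0.0156. Of the 18 alternatives run for knockdown against NC, 13 kept the call of RUNX3. With the replicate block the adjusted p was 0.0547, without HN6 NC replicate 1 it was 0.104, without HN6 siFAT1-1 replicate 1 0.0502, and without HN30 NC replicate 1 0.109.

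SKI, a corepressor that binds SMADs, was at 96.4 and 95.8 CPM in HN6 NC and 43.4 to 73.7 CPM after knockdown, and at 144 and 134 CPM in HN30 NC and 69.7 to 117 CPM after knockdown. Its log2 fold change was -0.66 (SE 0.176, adjusted p = 0.128) over both siRNAs, and with siFAT1-2 it fell by 0.93 (adjusted p = 0.00377). The DESeq2 Wald test gave SKI an adjusted p of 0.0334 over both siRNAs. TGFBRAP1, an adaptor of the receptors, changed by -0.54 (SE 0.166, adjusted p = 0.168). Among receptors, BMPR1A changed by 0.46 (SE 0.165, adjusted p = 0.234) and the co-receptor TGFBR3 by 0.70 (SE 0.294, adjusted p = 0.305). ITGB8, an integrin subunit that activates latent TGF-beta, changed by 0.88 (SE 0.373, adjusted p = 0.308), and with siFAT1-2 alone it rose by 1.27 (adjusted p = 0.0328).

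Of 30 TGF-beta-induced genes tested, 0 passed the adjusted p after knockdown in edgeR and 9 had an unadjusted P under 0.05, 6 higher and 3 lower, beside 14.2% of all genes. COL1A1, a fibrillar collagen, changed by 0.92 (SE 0.269, adjusted p = 0.151). MMP9, a gelatinase, changed by -4.70 (SE 1.06, adjusted p = 0.0710) and rested on its NC libraries, at 541 and 59.3 CPM in HN6 and 41.2 and 0.354 CPM in HN30. The DESeq2 Wald test gave an adjusted p of 0.0226 for COL1A1 and 0.00262 for MMP9, and limma-voom gave 0.187 for MMP9. The log2 fold change of MMP9 was -5.44 without HN6 NC replicate 2. Without HN30 NC replicate 1 its log2 fold change was -2.45 (adjusted p = 0.428).

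By siRNA, the 7 lists had 3 genes higher and 3 lower with siFAT1-1 (5.41% of 111, beside 3.15% of all genes) and 4 higher and 9 lower with siFAT1-2 (11.7%, beside 11.3%). In siFAT1-1 against siFAT1-2 there were 14 higher and 6 lower (18%, beside 16.8% of all genes), and none of the 9 members was among the genes called. GDF11, a ligand of the activin branch, was lower with siFAT1-1 by a log2 difference of -2.45 (SE 0.312, adjusted p = 0.00104), with 5.18 to 7.70 CPM in the 4 siFAT1-1 libraries and 14.4 to 62.4 CPM in the 4 siFAT1-2 libraries. GDF15, a stress-induced ligand of the superfamily, differed by -2.83 (SE 0.801, adjusted p = 0.0324). GDF15 in HN30 was at 20.6 and 18.7 CPM with siFAT1-1 and 622 and 148 CPM with siFAT1-2, whereas in HN6 the siRNAs were closer, at 13.8 and 17.4 against 28.4 and 19.1 CPM. TGIF2, a corepressor of SMADs, differed by -1.03 (SE 0.194, adjusted p = 0.00565) and MAP3K7, the kinase TAK1, by -0.77 (SE 0.213, adjusted p = 0.0295). FURIN, which cleaves the TGF-beta precursor, was higher with siFAT1-1 by 0.70 (SE 0.163, adjusted p = 0.0141), and LTBP3, which binds the latent ligand, by 0.96 (SE 0.230, adjusted p = 0.0161). The inhibitory SMAD6 was higher by 1.498 (SE 0.396, adjusted p = 0.0246), the protease BMP1 by 1.21 (SE 0.212, adjusted p = 0.00388) and the BMP antagonist NOG by 1.48 (SE 0.321, adjusted p = 0.0104). SMAD6 was near the floor in all libraries, at 8 to 50 counts and 0.221 to 1.87 CPM.

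Some of these calls between the siRNAs were lost when 1 library was left out. For FURIN these were HN6 siFAT1-1 replicate 1 and HN30 siFAT1-1 replicate 2 (adjusted p = 0.0552 and 0.0572), and for LTBP3 HN30 siFAT1-1 replicates 1 and 2 (0.0554 and 0.0524). For GDF15 the same 2 libraries gave 0.122 and 0.1196, HN6 siFAT1-1 replicate 1 gave 0.0639 and HN30 siFAT1-2 replicate 1 gave 0.0501, with a log2 difference of -1.67 in place of -2.83. MAP3K7 and SMAD6 were each lost without 5 of the libraries, replicate 1 of both siRNAs in both lines among them, with adjusted p from 0.0683 to 0.0852 for MAP3K7 and from 0.0515 to 0.0945 for SMAD6. The calls of GDF11, TGIF2, BMP1 and NOG, and those of TPM1 and PDGFB given next, held in all 12 of these fits.

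Of the TGF-beta-induced genes 7 of 30 were higher and 1 lower in siFAT1-1 against siFAT1-2, beside 9.62% and 7.14% of all genes. Their median log2 difference was 0.74, beside -0.02 over all genes, and 25 of 30 estimates were above 0. TPM1, a tropomyosin of actin filaments, differed by 1.76 (SE 0.213, adjusted p = 0.000875). In HN6 it was at 644 and 434 CPM in NC, 692 and 638 CPM with siFAT1-1, and 165 and 253 CPM with siFAT1-2, and in HN30 at 61.4 and 33.8, 78.2 and 70.6, and 21.0 and 20.3 CPM. PDGFB, a growth factor, differed by 1.21 (SE 0.223, adjusted p = 0.00504). The 1 lower gene, CDKN2B, an inhibitor of cyclin-dependent kinases named after its value was seen, differed by -1.20 (SE 0.341, adjusted p = 0.0332).

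Squamous epithelial markers moved in the same comparison. Of their 10 genes 5 were higher and 1 lower in siFAT1-1 against siFAT1-2 at an adjusted p under 0.05. Of all genes, the share beside each marker list here, 9.62% were higher and 7.14% lower. Their summed level in HN6 was 2658 to 3970.0 CPM in NC, 5756 to 6650 CPM with siFAT1-1 and 2744 to 3346 CPM with siFAT1-2, and in HN30 2214 to 2499.8, 3688 to 3975 and 2103 to 2281 CPM. Of the 9 fibroblast markers 6 were tested and 1 was higher and 1 lower, and their sum overlapped between the siRNAs in both lines. Of the 5 endothelial markers 3 were tested, and 2 of them were higher and 0 lower, while of the 5 leukocyte markers 2 were tested and 1 was higher. The summed level of the endothelial markers was low. In HN6 it was 6.97 to 9.13 CPM with siFAT1-1 and 1.11 to 2.32 CPM with siFAT1-2. In HN30 it was 2.89 to 3.40 and 0.260 to 0.583 CPM. The part of these markers in the difference of the induced genes was not tested.

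Between the lines, 39 of the 111 listed genes were higher in HN6 and 25 lower (57.7%, beside 56.6% of all genes). The induced genes went the other way from TGFBI, with 18 of 30 higher in HN6 and 0 lower at an adjusted p under 0.05 in edgeR. Of all genes 28.6% were higher and 27.9% lower. At an unadjusted P under 0.05, 20 of 30 were higher and 1 lower, beside 61.5% of all genes in either direction. Their median log2 difference was 1.06, beside 0.00056 over all genes. Of 12 receptors and co-receptors 2 were higher in HN6 and 6 lower at an adjusted p under 0.05, beside the same 28.6% and 27.9% of all genes. Their median was -0.55, and TGFBR2 was lower too.

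**Figure D5:**
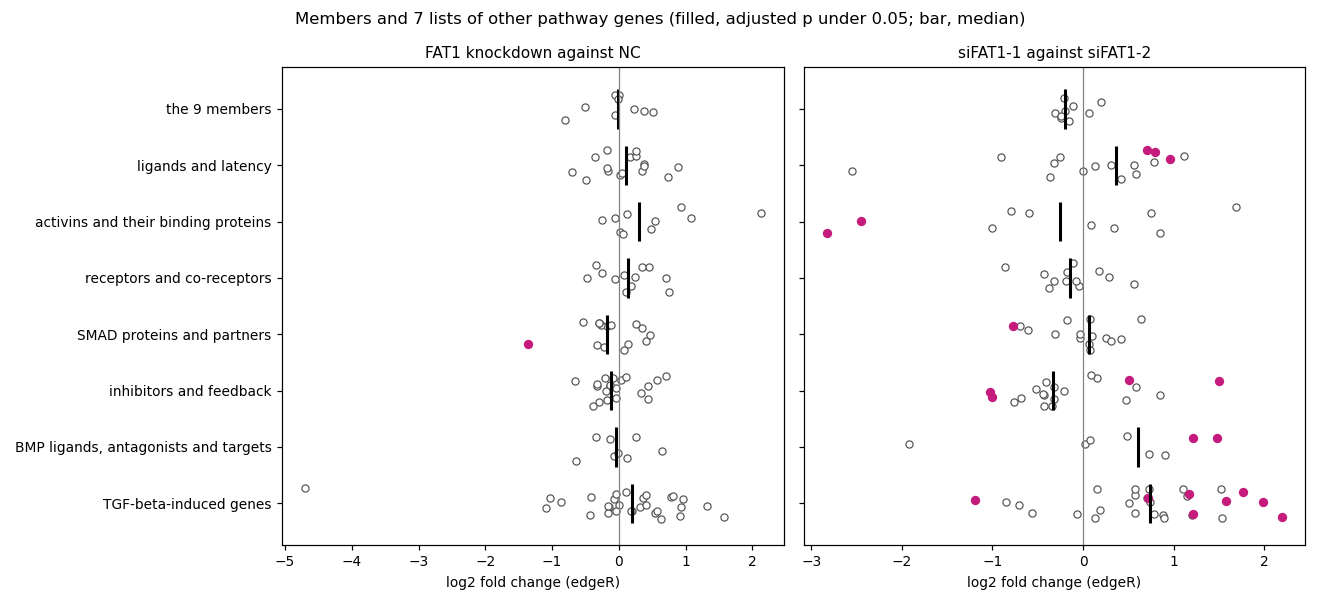
Log2 fold changes from edgeR of the 9 members and of the 111 tested genes in 7 lists, for FAT1 knockdown against NC (left) and siFAT1-1 against siFAT1-2 (right), with 1 point for each gene, filled where the adjusted p is under 0.05, and a bar for the median of each row. On the left RUNX3 at -1.36 is the only filled point, and on the right the median of the TGF-beta-induced genes is at 0.74 while no member is filled.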

How the data were processed

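Poly(A) RNA of 12 libraries was sequenced. Per the labels and the methods of the study, the authors filtered reads with custom scripts (poly-N reads, duplicates and reads of low quality), aligned those left to hg38 (HISAT2 and featureCounts are named without versions) and deposited whole-number counts per gene, without normalization. Neither the gene annotation nor the strand setting is given in the sources used here. The number of value columns left out was 0.

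Groups came from the sample labels. Genes were tested with edgeR 4.0.16 (TMM scaling, low counts removed by filterByExpr at 10, quasi-likelihood F-test) in a model of cell line and treatment, or in one of 6 condition means for effects within lines and the interaction, with Benjamini-Hochberg adjustment over 14360 genes. Fold changes used a prior count of 0.125 and log2 CPM a prior count of 2. Each SE given with edgeR was derived as the size of the log2 fold change divided by the square root of the F statistic. limma 3.58.1 and DESeq2 1.42.0 (R 4.3.3) gave alternatives, as did other size factors, no filter, a replicate block, no line term and leaving out each library. Only the model of knockdown against NC with a cell line term was tested on simulated data first, in edgeR, limma-voom and DESeq2. The simulation gave all genes the same spread and no difference between lines. The other models and alternatives were not simulated. Depth was 26430049 to 47639010 counts per library, and repeats of a condition differed beyond counting error (chi-square over degrees of freedom, 14.03 to 231), so repeats set the precision.

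The members and lists were chosen with earlier results of these data known. Named genes were the members, FAT1, from each pathway list the 2 genes with the lowest P under 0.05 after knockdown and the 2 with the lowest P between siRNAs at an adjusted p under 0.05, and for each member the gene with the highest r. CDKN2B was added after its value was seen. The titles mark the repeats as time 1 and time 2, words that they do not define. The main models did not use these marks, and only the replicate block took them to pair the libraries of a line. The correlations of their deviations from the condition means were 0.080, 0.216 and 0.221 in HN6 and -0.031, 0.393 and -0.025 in HN30. Coordinates are from GENCODE on GRCh38, and figures were drawn with matplotlib.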

Additional observations from a re-analysis of the deposited data

How the results depend on the processing

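Over 12 alternatives that left out 1 library and up to 6 others, SMAD3 kept its direction for knockdown against NC and for each siRNA, and its call with siFAT1-2. The count of members called moved from 0 to 1 in the DESeq2 Wald test for knockdown against NC and likewise from 0 to 1 for siFAT1-1. With libraries left out, the counts ran from 0 to 1 for siFAT1-1 (1 without HN6 siFAT1-2 replicate 1), from 0 to 2 within HN6 and from 0 to 2 for the interaction (2 without HN6 NC replicate 1). The counts past the DEG thresholds ran from 0 to 2 with siFAT1-2, from 0 to 2 within HN6, from 0 to 2 for the interaction and from 0 to 1 within HN30. At the adjusted p, siFAT1-1 also had 1 without HN30 siFAT1-2 replicate 1. HN6 against HN30 had 5 to 6 members called, with 6 without HN6 siFAT1-2 replicate 2, and 2 to 3 past the DEG thresholds. The cause was not tested.

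Changes of direction when libraries were left out are given here, and all values are log2 fold changes. For knockdown against NC, leaving out libraries gave -0.084 to 0.99 for INHBA, -0.13 to 0.087 for SMAD2, -0.17 to 0.017 for SMAD4, -0.37 to 0.34 for SMAD7 and -0.11 to 0.100 for TGFBI. With siFAT1-1 it gave -0.14 to 0.92 for INHBA, -0.33 to 0.21 for SMAD7 and -0.21 to 0.029 for TGFBI. With siFAT1-2 it gave -0.029 to 1.06 for INHBA, -0.030 to 0.19 for SMAD2, -0.027 to 0.17 for SMAD4, -0.60 to 0.47 for SMAD7 and -0.14 to 0.25 for TGFBI. Between the lines it gave -0.025 to 0.42 for TGFBR1, -0.0019 to 0.22 for SMAD3 and -0.44 to 0.13 for SMAD7. For the interaction it gave -0.28 to 0.17 for SMAD3, -0.071 to 0.45 for TGFBR2, -1.37 to 1.56 for INHBA and -0.55 to 1.35 for TGFBR1. Within HN6 it gave -0.21 to 0.36 for TGFB1, -0.87 to 2.06 for INHBA and -0.11 to 1.79 for TGFBR1.

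Without the cell line term SMAD2 was at -0.034 and TGFBI at 0.016 for knockdown against NC. The same edgeR fit gave an adjusted p of 0.339 for FAT1 and 0.131 for RUNX3. TGFBI was at 0.023 with DESeq2 size factors and at 0.023 in the DESeq2 Wald test. In limma-voom SMAD7 was at -0.0403 with siFAT1-2, and INHBA was at 0.62 within HN6 and at 0.11 for the interaction.

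With the repeats as a replicate block TGFBI was at 0.0055 for knockdown against NC, SMAD7 at -0.0435 with siFAT1-2 and INHBA at 0.37 within HN6. The block ended the calls of FAT1 (adjusted p = 0.0783) and RUNX3 (adjusted p = 0.0547) for knockdown against NC and changed no call on the 9 members in the comparisons of treatments. It was not run for HN6 against HN30, since the blocks lie within a line.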
